A study of Mus musculus with 3 samples.

Results

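The 10 genes described here encode basic helix-loop-helix (bHLH) factors and their partners: Hand1, Hand2, Twist1, Twist2 and Tcf21, the E proteins Tcf3, Tcf4 and Tcf12, and the inhibitors Id1 and Id2. They are listed by name, out of 21523 protein-coding genes. Every peak of accessible chromatin that overlapped the annotated span of a gene, or the 10 kb on either side of it, was taken as a peak of that gene. This gave 15 of the 12413 peaks of the deposited list, at 8 of the 10 genes. The list came from FAIRE-seq, which recovers DNA not held in nucleosomes, on whole uteri of untreated wild-type C57BL/6J females aged 6 to 10 weeks on gestation day 4. There is 1 group of 3 uteri, with no second genotype, treatment or time, and pregnancy was checked by blastocysts in the uterine flush. The list names no mouse, so the values below carry no spread between animals, no test was made, and library depth is unknown. A whole uterus mixes epithelium, stroma, muscle, vessels and immune cells, so a site open in few cells and a site weakly open in many cannot be told apart.

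bHLH factors bind DNA as dimers, at the short palindrome-like site called the E-box. E proteins are expressed in most tissues and pair with the tissue-restricted factors of the Hand and Twist families. Id proteins have the helix-loop-helix but lack the basic DNA-binding region, so they tie up E proteins in dimers that do not bind DNA. In the uterus, Hand2 is induced by progesterone in the stroma and restrains the fibroblast growth factor signals that drive epithelial growth before implantation. Id genes are classical targets of bone morphogenetic protein (BMP) signalling.

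Of the 10 genes, 8 had a peak within their window, beside 57.6% of all protein-coding genes. Long genes catch more peaks. Among protein-coding genes with a span under 5 kb the share was 32.6%, among those of 5 to 50 kb 61.5%, and among longer ones 72.7%. Of the 6 genes under 5 kb (Id1, Id2, Hand1, Hand2, Twist1 and Tcf21), 4 had a peak, and so did Twist2 and Tcf3 of the middle class and Tcf4 and Tcf12 of the longest. A peak within 1 kb of an annotated gene end was present at 6 of the 10, beside 44.5% of protein-coding genes. Neither Id gene was among these 6. The peaks were mostly weak. Their fold enrichment, the authors' ratio of summit signal to local background, was 4.85 at the median (range 2.95 to 9.99), while over all peaks the median was 5.80 (interquartile range 4.37 to 7.79). Below that median lay 12 of the 15 peaks. The 3 above it were those at Id2 (9.99), at Twist1 (7.45) and at the far edge of the Tcf3 window (8.92).

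**Figure D1:**
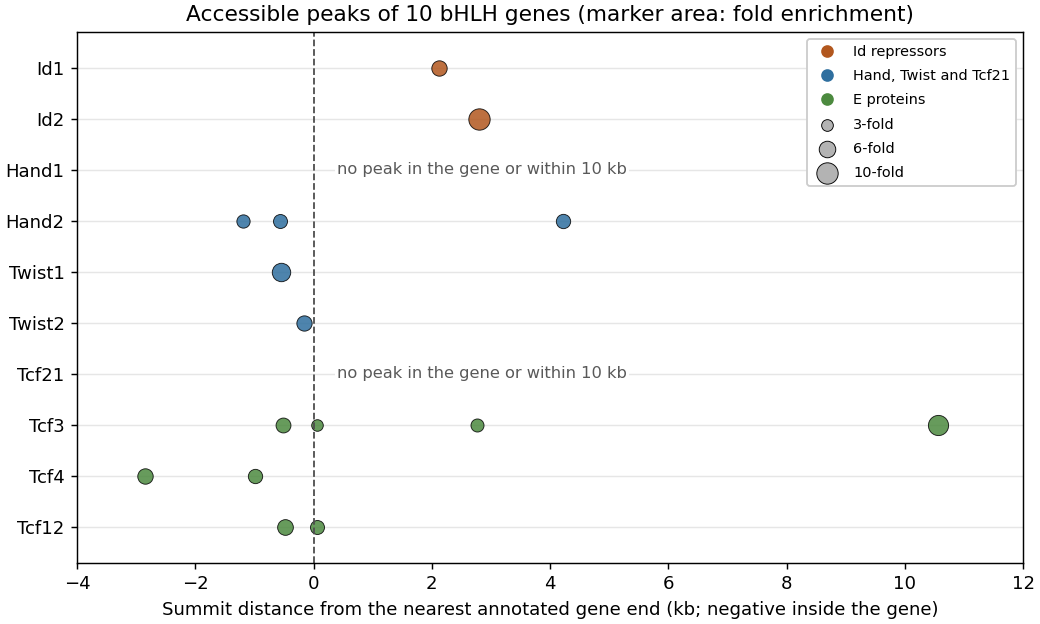
Distance in kb of each peak summit from the nearest annotated end of its gene, negative inside the gene, for the 10 genes; each point is a peak and its area is proportional to the fold enrichment. The summits at Twist1 and Twist2 lie just inside a gene end, those of Id1 and Id2 lie 2115 and 2791 bp outside, and Hand1 and Tcf21 have none.

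The sequences before the starts of the tissue-restricted genes, of Tcf12 and of Id2 are shown, and the position of the peaks relative to them is given below. They come from RefSeq (GRCm38.p6), which held a start for 7 of the 10 genes, and run 5′ to 3′ on the coding strand. Each holds the 250 bases before the start, less any that lie inside the annotated span of the gene, and capitals mark every E-box (CANNTG, both strands). Hand2 is chr8:57320733-57320982 on the + strand, Twist1 chr12:33957421-33957670 on the + strand and Twist2 chr1:91801211-91801460 on the + strand. Tcf21 is chr10:22820144-22820393 on the - strand, Tcf12 chr9:72111894-72112069 on the - strand and Id2 chr12:25096093-25096342 on the - strand.
Hand2: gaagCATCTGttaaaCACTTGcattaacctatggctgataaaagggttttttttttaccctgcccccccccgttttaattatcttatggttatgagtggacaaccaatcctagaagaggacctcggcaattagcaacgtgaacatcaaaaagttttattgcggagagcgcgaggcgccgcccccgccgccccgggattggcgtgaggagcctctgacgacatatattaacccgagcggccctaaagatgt
Twist1: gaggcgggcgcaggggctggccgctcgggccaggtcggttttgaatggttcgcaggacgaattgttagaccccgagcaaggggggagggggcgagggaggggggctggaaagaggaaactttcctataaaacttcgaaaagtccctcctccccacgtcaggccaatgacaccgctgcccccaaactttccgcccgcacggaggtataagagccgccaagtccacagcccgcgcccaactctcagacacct
Twist2: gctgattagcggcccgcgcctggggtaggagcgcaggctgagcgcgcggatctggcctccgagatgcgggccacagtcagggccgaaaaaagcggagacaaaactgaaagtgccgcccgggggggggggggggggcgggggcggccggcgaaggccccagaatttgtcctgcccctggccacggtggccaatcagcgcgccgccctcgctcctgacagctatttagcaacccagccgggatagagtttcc
Tcf21: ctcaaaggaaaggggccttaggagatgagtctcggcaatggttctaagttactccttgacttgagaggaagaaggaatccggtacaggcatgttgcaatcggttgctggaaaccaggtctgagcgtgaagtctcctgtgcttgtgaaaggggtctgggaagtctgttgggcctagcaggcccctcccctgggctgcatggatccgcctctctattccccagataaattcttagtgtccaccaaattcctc
Tcf12: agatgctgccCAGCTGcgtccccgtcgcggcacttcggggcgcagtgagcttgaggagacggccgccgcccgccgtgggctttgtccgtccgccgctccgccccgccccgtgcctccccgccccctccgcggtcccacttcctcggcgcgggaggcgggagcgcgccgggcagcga
Id2: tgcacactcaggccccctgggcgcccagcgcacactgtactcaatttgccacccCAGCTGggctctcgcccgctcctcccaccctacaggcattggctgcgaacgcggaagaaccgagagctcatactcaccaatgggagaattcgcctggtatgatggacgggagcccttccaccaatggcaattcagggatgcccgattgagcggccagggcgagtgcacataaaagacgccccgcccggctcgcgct

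The Tcf12 stretch lay wholly inside a peak, and no base of the other 5 lay in one. Tcf3 also has a RefSeq start, but the 250 bases before it lie wholly inside its annotated span and are not shown. Of these 250 bases, 84 lay in a peak. The whole 250 held 18 CpG dinucleotides and 1 E-box, CACTTG. At Twist2 the peak began 7 bases after the start, at Twist1 196 bases and at Hand2 458 bases after it. The 250 bases before the start held 38 CpG dinucleotides at Tcf12, 23 at Twist2, 18 at Twist1, 18 at Id2 and 15 at Hand2. At Tcf21, which had no peak, they held 5. Over all 32851 such windows of the RefSeq table, the median was 21 CpGs (interquartile range 16 to 28) in the 8686 windows that a peak overlapped and 3 (1 to 7) in the other 24165. The windows of Hand2, Twist1, Twist2 and Id2 thus lay above the interquartile range of windows without a peak, although no peak overlapped them. Hand2, with 15, lay just below the interquartile range of windows that a peak overlapped. Hand2 had 2 E-boxes, CATCTG and CACTTG, which start 246 and 235 bases before its start. Id2 and Tcf12 had CAGCTG, 196 and 240 bases before theirs, and Twist1, Twist2 and Tcf21 had none. The window before another Tcf12 start, which lies inside the annotated span and is not shown, held CAAGTG, 149 bases before that start. An E-box of any kind was found in 66.2% of all windows, CATCTG in 14.4% and CAGCTG in 13% (both strands). These matches describe the letters only.

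Among the tissue-restricted factors, Hand2 and its sister gene Hand1 differed. Hand2, on chromosome 8, had 3 peaks, more than any other gene of its group, and all were weak. The first (57321441 to 57321657) had a fold enrichment of 4.29 and a summit pileup, the coverage at its highest point, of 35. Its summit lay 566 bp downstream of the start, inside the gene. The second (57321971 to 57322293, 3.86-fold, pileup 32) followed after a gap of 313 bp, with its summit 1185 bp downstream. The third (57328609 to 57328856, 4.50-fold, pileup 35) lay beyond the other end of the gene, 4222 bp past it. In fold these peaks stood above 22.9%, 13.3% and 26.8% of the list. The start of Hand2 lies 124 bp from an end of Hand2os1, a long non-coding RNA gene known to be transcribed away from it. The summit of the first peak was 690 bp from that end. The non-coding genes Gm34030 and Hdnr lie 7174 and 7918 bp past Hand2 and had no peak at their ends. Having 3 or more peaks was uncommon, at 4.96% of protein-coding genes. Beyond the window, the next peak was 162798 bp away, at Sap30.

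Hand1, known for its part in trophoblast and heart, had no peak in its window. The nearest on its chromosome 11 (57801424 to 57802365, 6.08-fold) was 26348 bp away, with its summit 18 bp from an end of Sap30l. A non-coding gene, Gm32915, has an end 39 bp from an end of Hand1 and had no peak at its ends either. Tcf21, a factor of mesenchymal and fibroblast lineages, also had none. Its nearest peak (chromosome 10, 22731274 to 22732068, 8.57-fold) was 85195 bp away and lay at Tbpl1. An absent peak says that none was called in this list, not that the site was closed.

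The Twist genes, which keep mesenchymal cells from differentiating, each had 1 peak, and each peak sat just inside the start. At Twist1 (chromosome 12, 33957867 to 33958406, 540 bp wide) the fold enrichment was 7.45, the pileup 69 and the −log10 q 35.4, above 71.6% of all peaks in fold. Its summit was 544 bp downstream of the start. At Twist2 (chromosome 1, 91801468 to 91801809, 342 bp wide) the fold was 5.12, the pileup 40 and the −log10 q 14.7, above 38.6% of peaks. Its summit was 154 bp downstream of the start. The Twist1 peak was thus the higher by every measure given, in a list with no replicate to weigh the gap. Both genes stood alone. The next peak was 298067 bp from Twist1 and 260542 bp from Twist2, against a median of 50560 bp over protein-coding genes. A next peak more than 100 kb away was found at 5 of the 10 genes (Hand2, Twist1, Twist2, Tcf4 and Id2), beside 32.2% of protein-coding genes.

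**Figure D2:**
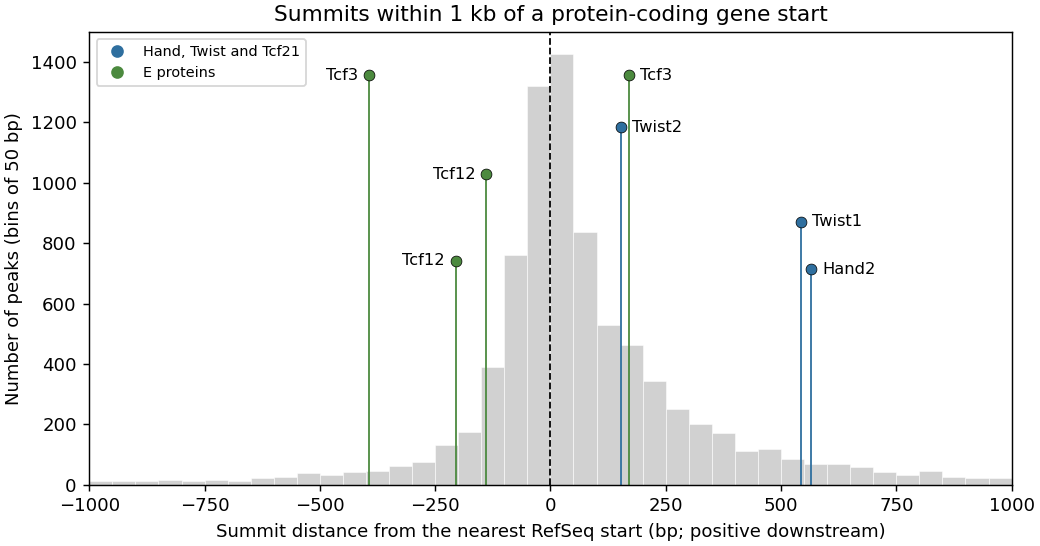
Grey bars count the peaks of the whole list by the distance of the summit from the nearest RefSeq start of a protein-coding gene, in bins of 50 bp, with positive distances downstream; stems mark the summits of the 10 genes within 1 kb of a start, and stem height carries no value. The summits of Twist1 and Hand2, at 544 and 566 bp, lie in the downstream tail of the bars.

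Over all 8137 peaks with a summit within 1 kb of a protein-coding start, the median summit lay 29 bp downstream (interquartile range -43 to 160), and 60.1% lay downstream. A distance of 500 bp or more downstream occurred in 5.81% of them, and the summits of Twist1 and of the first Hand2 peak belong to that share. Twist2, at 154 bp, lay within the interquartile range.

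All 3 E protein genes had peaks at a gene end, and each had a pair of neighbouring peaks at or near it. Tcf12, which encodes the E protein HEB, spans 267642 bp on chromosome 9. Its peaks were 72111109 to 72111620 (5.41-fold, pileup 54) and 72111797 to 72112249 (4.29-fold, pileup 43), 176 bp apart. RefSeq gives Tcf12 3 starts. The first peak had its summit 205 bp upstream of the nearest of them, and the second 139 bp upstream of another. The whole 250-base windows before these 2 starts lay in peaks, while the window before the remaining start, far inside the gene, lay in none and held 0 CpGs.

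Tcf3, which encodes E12 and E47, had 4 peaks in its window on chromosome 10, but only 2 of them at its own ends. These were 80433254 to 80433719 (4.85-fold, pileup 47), whose summit was 171 bp downstream of the start, and 80433966 to 80434222 (2.95-fold, pileup 28), 393 bp upstream. The gap between them was 246 bp. The 2.95-fold peak was the weakest of the 15, above only 0.854% of the list. The other peaks belong by position to neighbours. One (80406713 to 80406947, 3.73-fold) had its summit 44 bp from an end of Uqcr11, a respiratory chain subunit gene. The other (80398764 to 80399804, 8.92-fold, pileup 138) was 1041 bp wide, the widest of the 15, and its summit lay 557 bp from an end of Mbd3, a methyl-CpG binding domain gene. That peak was just inside the 10 kb limit, with its edge 9737 bp from Tcf3. Just outside the limit lay a peak 11979 bp from Id1 (chromosome 2, 152723991 to 152724272, 4.63-fold). Without the pair at Uqcr11 and Mbd3, 13 peaks remained near the 10 genes and their median fold was still 4.85.

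Tcf4, which encodes E2-2, is the longest of the 10 genes, at 344539 bp on chromosome 18. Its 2 peaks were 69344256 to 69344548 (4.49-fold, pileup 41) and 69346151 to 69346463 (5.22-fold, pileup 50). Their summits lay 985 and 2858 bp inside the end with the lower coordinate, with a gap of 1602 bp between the peaks. No strand was used for Tcf4, so this end is not called a start. The rest of Tcf4 and of Tcf12 had no peak. Of the 698 protein-coding genes over 200 kb long with a peak, 28.7% had one more than 5 kb inside from both ends, and neither Tcf4 nor Tcf12 was among them. A pair of peaks within 1 kb of the gene ends was found at Hand2, Tcf3 and Tcf12, which is 3 of the 6 genes with a gene-end peak. Of all 9576 protein-coding genes with such a peak, 10.9% had 2 or more. This count was made after the pairs had been seen. The pair at Hand2 rests on the rule of overlap by 1 base, since the summit of its second peak lay 1185 bp from the gene end. Beyond the window of Tcf12, 20954 bp away, lay a strong peak (72132847 to 72133538, 12.1-fold), with its summit 141461 bp from the nearest other protein-coding gene end, that of Zfp280d, and 3721 bp from an end of the pseudogene Gm7863.

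The Id genes had no peak at their ends, and each had a single peak 2 to 3 kb outside. The Id2 peak (chromosome 12, 25098675 to 25099080) was the strongest of the 15. It had a fold enrichment of 9.99, a pileup of 130 and a −log10 q of 80.8, above 90.4% of all peaks. Its summit lay 2791 bp upstream of the start, and the nearest other protein-coding gene end, that of Kidins220, was 35731 bp from it. The Id1 peak (chromosome 2, 152739410 to 152739660) reached 5.19-fold with a pileup of 48, above 39.9% of peaks. Its summit was 2115 bp beyond the end of Id1 with the higher coordinate. The nearest other protein-coding gene end, that of Cox4i2, was 14391 bp away. So neither peak sat at another coding gene. The other members of the family differed in layout. Id4 had a pair of peaks at its start (4.58-fold and 5.70-fold), and the first covered 179 of the 250 bases before it. Id3 had 4 peaks between 3.42-fold and 4.62-fold, of which 1 lay at a gene end.

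**Figure D3:**
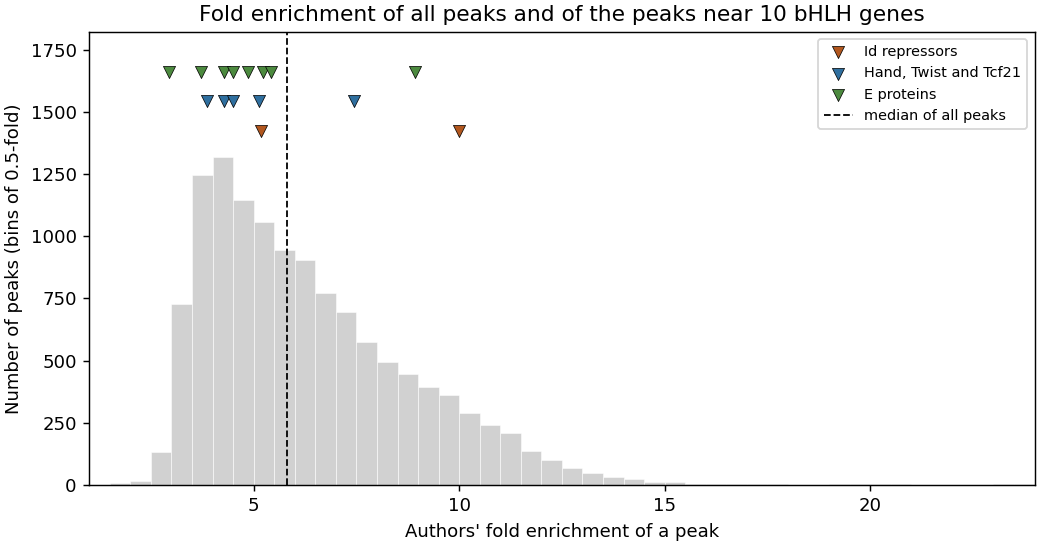
Grey bars count all 12413 peaks by the authors' fold enrichment in bins of 0.5, and the dashed line is their median of 5.80; triangles mark the 15 peaks near the 10 genes, in rows by role, and row height carries no value. Of the triangles, 12 lie left of the line, and the Id2 peak at 9.99 lies farthest to the right.

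The summit pileup had a median of 43 (28 to 138) near the 10 genes and 55 over all peaks. The local background, computed as (pileup + 1) / fold − 1, had a median of 8.44 (7.0 to 14.6), against 8.59 over all peaks (interquartile range 7.36 to 10.2). The median width was 323 bp near the 10 genes and 427 bp overall. The 9 peaks at gene ends had a median fold of 4.49, and all 9229 peaks at protein-coding gene ends 6.06. Twist1 had the highest of the 9.

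Other bHLH genes and the pathways around these factors were read from lists. Counts use the same window, and each fold given, unless stated otherwise, is that of a peak within 1 kb of a gene end, the 3 highest such values being named for most lists. In the window, all 16 of the leucine zipper class had a peak, with Tfeb (9.83-fold), a lysosomal regulator, Mxd1 (7.57) and Srebf2 (6.98) the highest at gene ends. All 9 Hes and Hey genes, targets of Notch signalling and relatives, had a peak in the window. Hey2 (9.81), Bhlhe40 (8.02) and Hes6 (7.15) were the highest of them at gene ends. A peak of 8.49-fold near Bhlhe41 lay 1333 bp from an end and so is not among them. The PAS class, which senses oxygen, xenobiotics and time of day, stood at 9 of 10, with Clock (7.41), Ahr (5.56) and Npas2 (5.32) the highest at gene ends and no peak at Sim1. Inside the genes, away from their ends, Hif1a had a peak of 9.99-fold and Arntl one of 6.82-fold. Lineage factors of neurons, muscle and glands stood at 8 of 16, among them Ascl2 (5.33) and Neurog1 (4.12), with none at Bhlha15 or Myf5. Away from its ends, Neurog2 had a peak of 7.34-fold outside the gene and one of 6.78-fold inside it. Of the 16 lineage factors, 15 are under 5 kb long, the class in which 32.6% of genes had a peak. The leucine zipper and PAS lists hold no gene that short, and among longer protein-coding genes 61.5% (5 to 50 kb) and 72.7% (over 50 kb) had a peak. The Hes and Hey list holds 4 genes under 5 kb, all with a peak. The list of Twist, Hand and Tal relatives holds 6, of which 4 had a peak. Relatives of Twist, Hand and Tal stood at 8 of 11, with 10.1-fold at Mesp2, 7.0 at Tcf24 and 6.16 at Mesp1, and none at Ferd3l or Lyl1. The Tcf24 summit lay 658 bp from an end of Tcf24 and 1299 bp from an end of Ppp1r42.

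Genes upstream of Hand2 in the stroma had a peak in 7 of 8. Fkbp4, a chaperone of the progesterone receptor, reached 11.4-fold at a gene end, Smo 6.21 and Ptch1 4.45, and Gli1 had none. Away from their ends but inside the genes, Nr2f2 had a peak of 10.4-fold, Ptch1 one of 7.36-fold and Pgr one of 5.05-fold. Fibroblast growth factors under Hand2, their receptors and Frs2 together stood at 7 of 8. The receptor Fgfr2 reached 11.6-fold, Fgfr1 6.35 and Fgfr3 6.08, while Fgf1 had none. BMP genes upstream of the Id genes stood at 11 of 12, with the signal carriers Smad1 at 10.6 and Smad5 at 7.81 and the receptor Bmpr1a at 7.91, and none at Bmp4. These 3 lists hold no gene under 5 kb, and among longer protein-coding genes 61.5% (5 to 50 kb) and 72.7% (over 50 kb) had a peak. The highest of the 9 gene-end peaks of the 10 bHLH genes, at Twist1 (7.45), lay below those of Fkbp4, Fgfr2, Smad1, Bmpr1a and Smad5. It lay above those of Smo, Ptch1, Fgfr1 and Fgfr3. Of 8 uterine genes, 6 had a peak (75%), beside 57.6% of all protein-coding genes, with Esr1 and Foxa2 lacking one, and Hoxa10 and Hoxa11 were counted on the same 2 peaks. Of 6 genes of other organs, 1 had a peak. That 1 was Gfap, whose peak lay 17 bp from an end of Eftud2. These small counts are a weak check of the tissue.

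**Figure D4:**
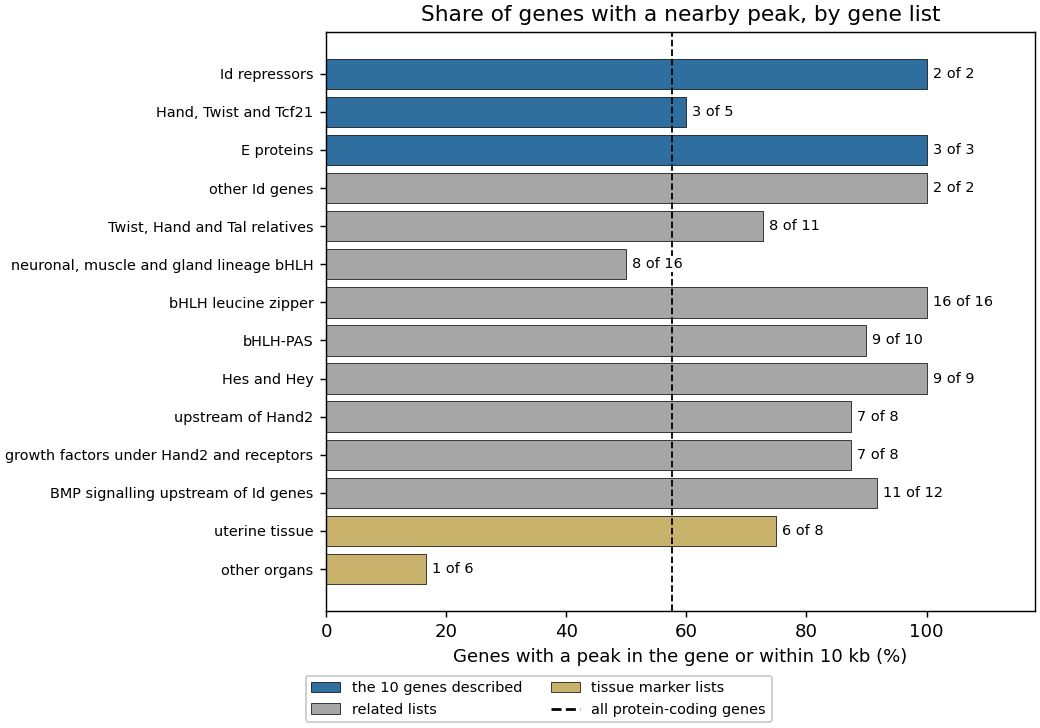
Bars give for each list the percentage of genes that have a peak inside them or in the 10 kb on either side, with the count beside each bar; blue bars are the 10 genes described, grey bars the related lists and yellow bars the tissue marker lists. The dashed line at 57.6% is the share over all protein-coding genes, and the lists differ in gene length.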

How the data were processed

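FAIRE DNA came from 100 mg of frozen uterus per the labels' protocols, fixed for 9 min in 1% formaldehyde and sheared to about 300 bp. FastQC, Bowtie2, HOMER, MACS2 and the build GRCm38.p5 are listed in the submitters' processing notes. Input control, call threshold and pooling of libraries: not given in the sources used here. The labels speak of 3 mice and the series' design text of 4, from RNA; 3 DNA samples form the group. The deposited table holds, per the file headers, each peak's pileup (a coverage signal), fold enrichment (a ratio) and −log10 q-value (the −log10 p-value was not used); 6 unnamed columns were empty.

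Gene spans came from RefSeq GRCm38.p6 (chromosomes 1 to 19 and X), without 340 genes that carry scaffold coordinates (starts under 3 Mb); none of its gene coordinates is printed. Overlap by 1 base counted. Windows were counted with Python 3.11.15 and pandas 2.3.3, and the procedure was tested on simulated data. Strand was known only for genes with a RefSeq promoter sequence (17274 protein-coding genes). The window, overlap and peak set were varied. The 10 genes and all lists were chosen with earlier results of these data known. From each related list, the 3 highest gene-end folds and up to 2 genes without a peak are named, except 1 gene that is not reported here; Id3, Id4, Sap30, Sap30l, Tbpl1, Kidins220, Cox4i2, Zfp280d and Gm7863 are named as neighbours or family members.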

Additional observations from a re-analysis of the deposited data

How the results depend on the processing

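Of 40 values recomputed under 14 alternatives, 31 stayed within 1.5 times of the reported count or within 5% of the reported median. With the 6206 peaks of highest fold, and also with the 6206 of highest −log10 q, 3 genes kept a peak (Tcf3, Id2 and Twist1), 3 peaks were left, their median fold was 8.92, and Twist1 was the 1 gene with a gene-end peak. The Tcf3 peak kept there is the one at Mbd3. In those sets the share of protein-coding genes also fell, to 36.2% and 35.8%. With 50 kb on either side the median fold was 5.16, over 22 peaks. With the gene span alone, 6 genes had a peak, beside 48.8% of protein-coding genes, and the Id genes lost theirs. With gene ends widened from 1 kb to 2 kb Id1 gained a gene-end peak, and to 5 kb Id2 did as well. The shares of protein-coding genes with such a peak were then 47.7% and 51.9%. 2 alternatives were chosen after seeing the data. Keeping the scaffold genes changed none of the 4 results beyond these limits. Leaving out the peaks at Uqcr11 and Mbd3 changed none of the 3 it was run on, and the count of genes with a gene-end peak was not recomputed there. Leaving out each mouse was not run, since the list names no mouse, and depth is unknown.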
